A study of Mus musculus with 6 samples.

Results

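Most ATP-binding cassette (ABC) genes encode proteins that couple ATP hydrolysis to movement of a substrate across a membrane. Exceptions include a few members that work on ribosomes and cross no membrane, and the sulfonylurea receptors of potassium channels. The family was taken as every protein-coding gene of the deposited table whose symbol is Abc, a subfamily letter from a to g, a number and at most 1 further letter. This gave 50 genes of 55471 gene IDs. All 50 were found in the GENCODE M21 annotation of GRCm38, the build named in the submitters' processing notes. The unit is TPM, each gene's share of the library's transcripts corrected for length, so levels of different genes can be set side by side.

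The samples were 6 bulk total RNA libraries of haematopoietic stem cells from mice of the ETV6-RUNX1 genotype. The sort gate was Lin- Kit+ Sca1+ CD48- CD150+. In 3 libraries (uninduced) the mice received no doxycycline, and in the other 3 (induced) they received doxycycline food for 2 weeks, which turns on the ETV6-RUNX1 fusion found in childhood B-cell precursor leukaemia. Both groups carry the inducible genotype, and no group with doxycycline but without the fusion was analysed here, so induction and doxycycline cannot be told apart. Strain, age, sex, the promoter of the transgene and whether animals were pooled are not given in the sources used here. Nothing in the labels states that the 3 libraries of a group came from separate mice, so p-values measure the spread between these libraries only. TPM keeps no sequencing depth, and depth was therefore unknown.

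Membrane ABC proteins are built from transmembrane helices and a pair of nucleotide-binding domains, each holding an ABC signature motif. In stem cells the family is best known for dye efflux. Abcg2 expels the DNA dye Hoechst, which defines the side population, and P-glycoprotein, encoded in the mouse by Abcb1a and Abcb1b, expels rhodamine and many drugs. Other members export cholesterol and phospholipids, leukotrienes and glutathione conjugates, or serve mitochondria, peroxisomes and lysosomes.

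All 6 stem cell markers examined were detected, at a summed 323 to 473 TPM in uninduced and 439 to 473 TPM in induced libraries. By limma's adjusted p, 3 of the 6 were higher and 1 lower in induced libraries (4 and 0 after median-of-ratios scaling, which centres the change of all genes near 0), and 2 of 5 megakaryocyte markers were higher and 1 lower. Among all tested genes 1.29% passed as higher and 10.2% as lower (2.88% and 3.10% on the median-of-ratios scale). Of 5 B-cell markers, Cd79a, Ms4a1 and Pax5 were at 0 in every library, and of 5 T and NK cell markers Cd3d, Cd3e and Cd8a were. The 8 myeloid markers summed to 234.5 to 284.3 TPM in uninduced and 233.8 to 284.3 TPM in induced libraries. Of 6 tested, 1 was higher and 0 lower by limma's adjusted p (2 and 0 after median-of-ratios scaling). Summed levels did not overlap between groups for 4 marker lists. The 8 erythroid markers summed to 56.02 to 65.5 TPM in uninduced and 390.1 to 450.8 TPM in induced libraries, with 5 of 8 higher by limma's adjusted p. The 4 proliferation markers summed to 170.2 to 191.7 TPM and 19.4 to 28.6 TPM, with 4 of 4 lower. The T and NK cell markers summed to 5.84 to 16.7 TPM and 0 to 0.738 TPM, and the B-cell markers to 4.21 to 9.86 TPM and 3.11 to 3.85 TPM. In bulk libraries, fewer cells of a type and less RNA per cell cannot be told apart.

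Of the 50 genes, 27 averaged 1 TPM or more across the 6 libraries and were tested, and 22 reached 1 TPM in every library. A further 19 genes were listed at 0 in all 6 libraries. They belong to 4 subfamilies: 9 of 16 in A, 2 of 10 in B, 5 of 10 in C and 3 of 6 in G. They include Abcb11, the bile salt export pump, Abcg5 and Abcg8, which together export sterols in liver and gut, Abcc8 and Abcc9, the sulfonylurea receptors of potassium channels, and Abca12, a lipid transporter of skin. The remaining 4 genes were detected below the minimum. Abcc3 reached 1.44 and 2.62 TPM in a pair of induced libraries and lay between 0 and 0.768 TPM in the other 4. Abca13 reached 1.55 TPM in uninduced replicate 1 and was at most 0.132 TPM elsewhere. Abcd2, a peroxisomal fatty acid importer, was at 0.0903 to 0.306 TPM in uninduced and 0.522 to 0.554 TPM in induced libraries. Abcb9, a lysosomal peptide transporter, did not exceed 0.211 TPM.

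By mean over the 6 libraries, the order of levels began with Abcf1 (53.02 TPM), Abcg2 (41.3 TPM), Abce1 (31.9 TPM), Abca2 (25.4 TPM), Abcf2 (21.6 TPM) and Abcc1 (21.3 TPM). By this mean Abcg2 was the highest member that encodes a membrane transporter, and it ranked 1109 among 10575 tested protein-coding genes. The uninduced ranges of Abcg2 and Abca2 overlapped, and in uninduced replicate 3 Abca2 (26.9 TPM) lay above Abcg2 (26.2 TPM). The family reached 10 TPM in the mean for 12 genes. Some neighbours in this order were separate within a group and others overlapped. In uninduced libraries Abcf1 (60.1 to 71.7 TPM) lay wholly above Abcg2 (26.2 to 55.1 TPM), and Abce1 (45.04 to 48.6 TPM) wholly above Abca2 (26.9 to 40.03 TPM). Abcg2 overlapped Abce1 there, as Abca2 overlapped Abcf2 and Abcf2 overlapped Abcc1. In induced libraries Abcg2 (31.0 to 49.4 TPM) lay above all 3 values of Abce1 (15.1 to 18.03 TPM), and the other neighbours among these 6 genes overlapped.

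**Figure D1:**
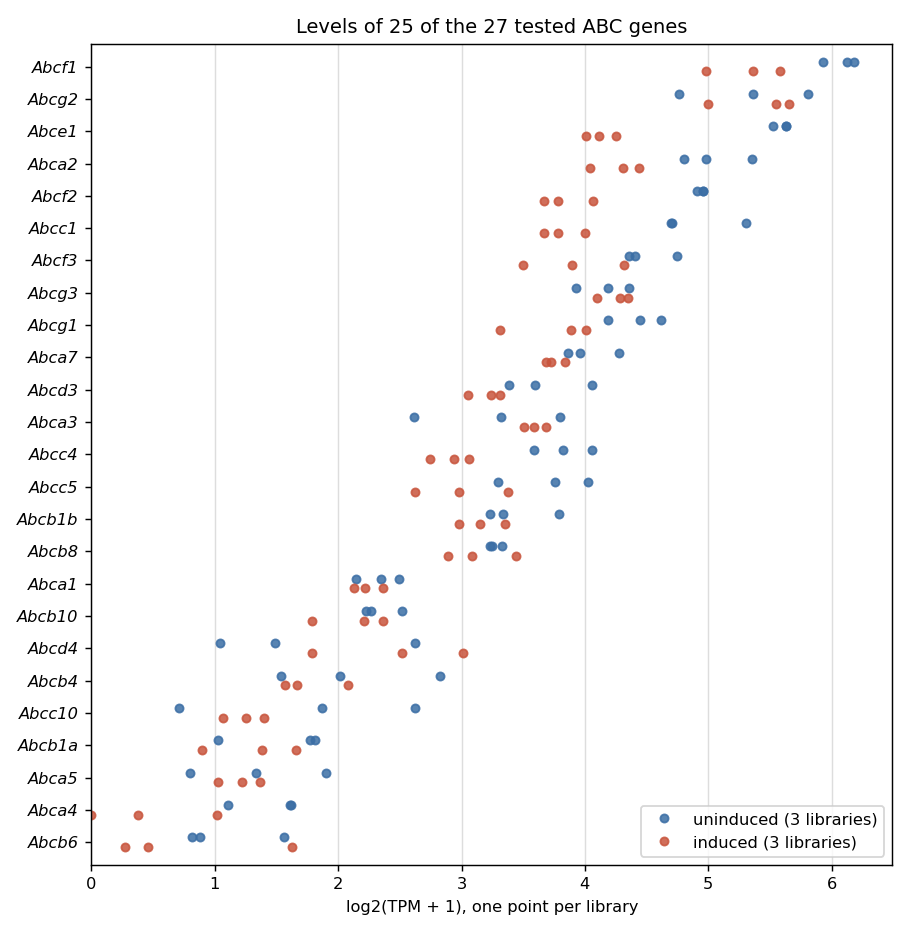
Levels of 25 of the 27 tested ABC genes, in order of mean TPM, on a log2(TPM + 1) axis. Each point is 1 library, blue for the 3 uninduced and red for the 3 induced; the colours separate for Abce1, Abcf1, Abcf2 and Abcc1 and mix for Abcg2, Abcb1a and Abcb1b.

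The 3 dye-efflux pumps were all expressed, at very unequal levels, and 0 of 3 passed the test for a change on induction (limma, also 0 of 3 at an unadjusted p under 0.05, on either scale). Abcg2 (ENSMUSG00000029802, chromosome 6, 58584523 to 58695676, plus strand) was at 40.2, 55.1 and 26.2 TPM in uninduced replicates 1 to 3 and at 49.4, 31.0 and 45.8 TPM in induced replicates 1 to 3. The groups overlapped almost fully, and uninduced replicates 2 and 3 were the highest and the lowest of the 6 libraries. The means were 40.5 ± 14.4 TPM and 42.1 ± 9.76 TPM (SD, n = 3 each). The log2 change, induced minus uninduced on the log2(TPM + 1) scale, was 0.09 (SE 0.29, 95% interval -0.56 to 0.73, limma adjusted p = 0.873). After median-of-ratios scaling it was 0.49 (interval -0.05 to 1.03, limma adjusted p = 0.278). The sign on the deposited scale turned when uninduced replicate 3 (-0.19) or induced replicate 1 (-0.04) was left out.

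Abcb1b (ENSMUSG00000028970, chromosome 5, 8798147 to 8866315, plus strand) was at 8.40, 12.8 and 9.08 TPM in uninduced and 9.22, 6.88 and 7.88 TPM in induced libraries. Uninduced replicate 2 was the highest and the other 5 values interleaved. Its log2 change was -0.29 (SE 0.29, interval -0.93 to 0.35, limma adjusted p = 0.545). Abcb1a (ENSMUSG00000040584, chromosome 5, 8660077 to 8748575, plus strand), its neighbour, was at 2.42, 1.04 and 2.52 TPM in uninduced and 1.61, 0.860 and 2.16 TPM in induced libraries. Replicate 2 was the lowest in each group. Its log2 change was -0.22 (SE 0.44, interval -1.21 to 0.76, limma adjusted p = 0.780). After median-of-ratios scaling the changes of Abcb1b and Abcb1a were 0.08 and 0.01, so their sign depended on the scaling. The intervals of the 3 pumps are wide, and a p that misses the threshold does not show that their levels were equal. Within every library the order was Abcg2, then Abcb1b, then Abcb1a.

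Abcb1a and Abcb1b are close copies, and short reads can belong to either. Their coding sequences of 3828 bases each were 88.0% identical over 3819 aligned bases, and 9.84% of the 100-base windows of one occurred unchanged in the other. The longest identical run covered 338 bases, from coding base 1357 to 1694 in Abcb1a and from 1366 to 1703 in Abcb1b. A stretch of 200 bases of that run around the signature motif, coding bases 1486 to 1685 of Abcb1a and 1495 to 1694 of Abcb1b, is shown because a read from it has no base that tells the genes apart. The bases are from the GENCODE M21 transcripts, 5′ to 3′, with the 15 bases that encode the ABC signature motif of the first nucleotide-binding domain in capitals.
Abcb1a and Abcb1b: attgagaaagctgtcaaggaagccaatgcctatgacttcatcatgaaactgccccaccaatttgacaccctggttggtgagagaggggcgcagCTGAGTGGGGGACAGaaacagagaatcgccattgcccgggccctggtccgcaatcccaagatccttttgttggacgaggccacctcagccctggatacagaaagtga
How the authors' program divided such reads is not given in the sources used here, so the split between Abcb1a and Abcb1b is uncertain while most windows do tell them apart. The windows stand for single reads of coding sequence, and paired mates and untranslated ends were not considered. Abcb4, the phosphatidylcholine exporter next to them on chromosome 5, shared 11 such windows with Abcb1a and 0 with Abcb1b. It was at 6.10, 1.90 and 3.03 TPM in uninduced and 3.24, 1.96 and 2.18 TPM in induced libraries (limma adjusted p = 0.634). Abcg3, a rodent relative of Abcg2, shared 0 windows with it. Abcg3 was at 17.0 ± 2.64 TPM and 18.0 ± 1.72 TPM (SD, n = 3 each); the libraries of both groups interleaved (log2 change 0.09, limma adjusted p = 0.842).

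Across the family, induced against uninduced, 4 of 27 tested genes passed a limma adjusted p of 0.05, all 4 lower and 0 higher (8 genes had an unadjusted p under 0.05). Among all 13470 tested genes 11.5% passed, 10.2% as lower and 1.29% as higher, against 14.8% of the ABC genes as lower. The median log2 change of the 27 genes was -0.36 and that of all tested genes -0.35, but how close they lay depended on the genes, libraries and pseudocount used. Among genes with a mean of 5 TPM or more the medians were -0.64 and -0.38, and without uninduced replicate 2 they were -0.48 and -0.30. With a pseudocount of 0.1 they were -0.52 and -0.39, and with a pseudocount of 5 they were -0.25 and -0.23. Groups did not overlap for 12 of the 27, all lower in induced libraries (44.4%, against 28.2% of all tested genes as lower and 4.83% as higher). The summed level of the 50 genes was 445.2, 469.6 and 375.5 TPM in uninduced and 278.3, 277.9 and 291.8 TPM in induced libraries, so all 3 induced sums were the lower. Nuclear protein-coding genes as a whole took 26.6% to 32.9% of TPM in uninduced and 20.5% to 23.2% in induced libraries. As a share of that protein-coding TPM, the family took 0.141% to 0.149% in uninduced and 0.126% to 0.135% in induced libraries, which were again lower without overlap. Sums and shares include the 4 genes of subfamilies E and F, which are not transporters, so they do not describe the membrane transporters alone. On the median-of-ratios scale the median of all genes was 0.0032, a shift of about 0.35 from the deposited scale, and that of the family was -0.09. There 1 ABC gene passed, lower, where 5.98% of all genes passed, 3.10% as lower and 2.88% as higher (5 ABC genes had an unadjusted p under 0.05). Groups then did not overlap for 6 genes that were lower and 2 that were higher, Abcg3 and Abca3, where 14.3% and 13.6% of all genes did so.

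**Figure D2:**
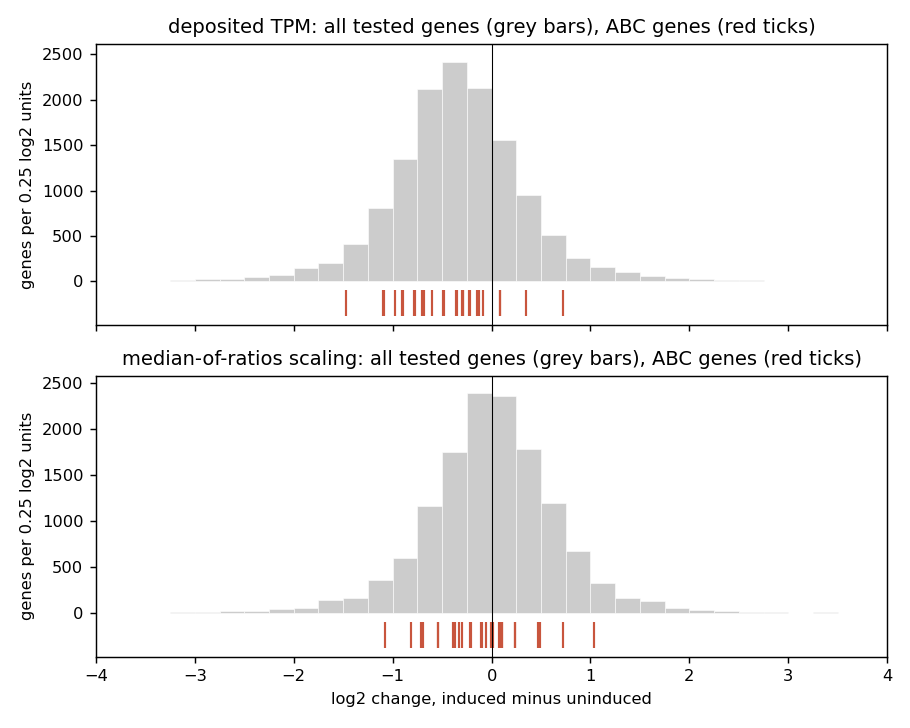
Number of tested genes per 0.25 log2 units of change, induced minus uninduced (grey bars, 13470 genes), on the deposited scale above and after median-of-ratios scaling below, with the 27 ABC genes as red ticks under the bars. The ticks spread on both sides of the grey peak, with medians of -0.36 and -0.09 beside -0.35 and 0.0032 for all genes.

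Of the 4 ABC genes that passed, 3 belong to subfamilies E and F, whose proteins have no transmembrane helices and work on or near ribosomes. Of the 4 genes of these subfamilies, 3 passed as lower and 0 as higher, and all 4 had groups without overlap on the deposited scale, where 10.2% of all tested genes passed as lower and 28.2% were lower without overlap. After median-of-ratios scaling 1 of the 4 passed and 2 were lower without overlap, where 3.10% and 14.3% of all genes were. Abce1 encodes the recycling factor that splits ribosomes after termination. It (ENSMUSG00000058355, chromosome 8, 79683462 to 79711740, minus strand) was at 45.04, 48.6 and 48.5 TPM in uninduced and 15.1, 18.03 and 16.3 TPM in induced libraries. The lowest uninduced value was far above the highest induced value. The group means were 47.4 ± 2.03 and 16.5 ± 1.46 TPM (SD, n = 3 each), and Abce1 fell by 1.47 on the log2 scale (SE 0.19, limma adjusted p = 0.00265). On the median-of-ratios scale it was the ABC gene that passed, at -1.08 (SE 0.19, limma adjusted p = 0.0145). On that scale it missed the threshold when uninduced replicate 3, induced replicate 1 or induced replicate 3 was left out (limma adjusted p up to 0.0630), with changes of -1.19 to -0.99 over the 6 sets of 5 libraries.

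Abcf2, a cytosolic ABC ATPase of the family that includes yeast ribosome-binding factors, was nearly constant in uninduced libraries at 30.1, 30.05 and 29.01 TPM. It was at 11.7, 15.8 and 12.8 TPM in induced libraries, all below the uninduced values. Abcf2 (ENSMUSG00000028953, chromosome 5, 24565345 to 24577467, minus strand) fell by 1.10 on the log2 scale (SE 0.22, limma adjusted p = 0.0129). Relative to the shifted median the fall was smaller, -0.71 after median-of-ratios scaling, and did not pass (limma adjusted p = 0.0903). On the deposited scale it also missed the threshold without induced replicate 1 (limma adjusted p = 0.0529). Abcf1, which binds the initiation factor eIF2, was at 71.7, 68.8 and 60.1 TPM in uninduced and 30.6, 46.9 and 40.1 TPM in induced libraries. The groups were separate, with induced replicate 1 the lowest. Abcf1 (ENSMUSG00000038762, chromosome 17, 35956819 to 35969761, minus strand) fell by 0.77 (SE 0.21, limma adjusted p = 0.0396). It did not pass after median-of-ratios scaling (-0.37, limma adjusted p = 0.318), nor when any 1 of the 6 libraries was left out. Abcf3, a further cytosolic member, was at 21.8 ± 3.45 and 14.4 ± 4.31 TPM (SD, n = 3 each) and did not pass (log2 change -0.60, limma adjusted p = 0.183). On the deposited scale Abce1, Abcf1 and Abcf2 were lower in the same libraries in which the 4 proliferation markers were lower, as given above, and the part of that in the result was not tested.

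**Figure D3:**
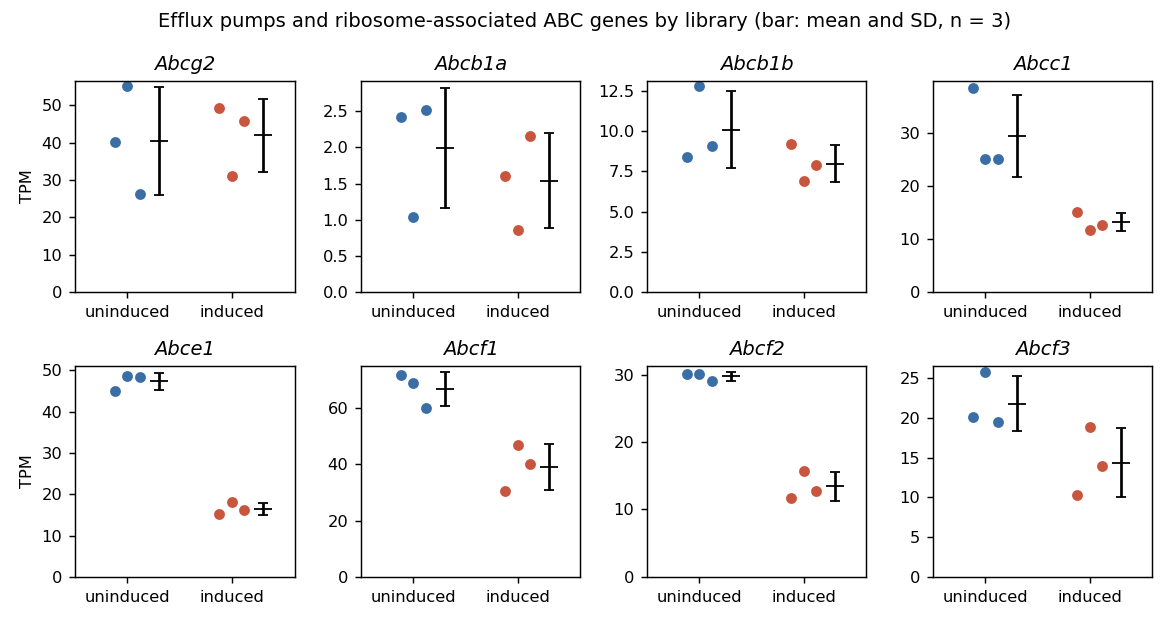
TPM of the 3 dye-efflux pumps, Abcc1 and the 4 ribosome-associated ABC genes in each library (blue, uninduced; red, induced), with the mean and SD of each group as a black bar and every axis starting at 0. The 3 induced values of Abce1 lie between 15.1 and 18.03 TPM, below the uninduced values of 45.04 to 48.6 TPM, while the values of the 3 pumps overlap between groups.

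The bases before the start sites of the 3 genes that fell together are shown so that their letters can be compared. They are the 250 bases before the RefSeq start (GRCm38.p6), 5′ to 3′ on the gene's strand. Capitals mark matches, on either strand, to CACGTG, an E-box bound by Myc and other helix-loop-helix factors, or TGACGTCA, the cyclic AMP response element. The regions are chr8:79711741-79711990 for Abce1, chr17:35969751-35970000 for Abcf1 and chr5:24577468-24577717 for Abcf2, all on the minus strand.
Abce1: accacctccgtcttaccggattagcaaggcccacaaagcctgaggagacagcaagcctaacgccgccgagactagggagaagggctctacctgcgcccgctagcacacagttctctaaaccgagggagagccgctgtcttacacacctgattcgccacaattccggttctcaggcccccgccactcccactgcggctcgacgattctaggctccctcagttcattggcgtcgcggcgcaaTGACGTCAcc
Abcf1: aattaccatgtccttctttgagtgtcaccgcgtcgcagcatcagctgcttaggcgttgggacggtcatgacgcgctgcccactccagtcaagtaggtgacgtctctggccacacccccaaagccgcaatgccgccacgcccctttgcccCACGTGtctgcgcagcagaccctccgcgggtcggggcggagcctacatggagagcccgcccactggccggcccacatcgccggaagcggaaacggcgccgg
Abcf2: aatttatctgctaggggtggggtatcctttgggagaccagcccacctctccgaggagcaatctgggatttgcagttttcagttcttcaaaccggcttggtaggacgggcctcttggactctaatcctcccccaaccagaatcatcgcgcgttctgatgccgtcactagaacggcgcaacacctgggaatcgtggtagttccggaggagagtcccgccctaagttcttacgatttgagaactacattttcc
The 3 windows held no common match. Abce1 held TGACGTCA starting at base -10, Abcf1 held CACGTG starting at base -101, and Abcf2 held neither. CACGTG was found in 6.86% of the 27025 genes with a RefSeq promoter and TGACGTCA in 1.77%, in any of a gene's windows. Among the 21 tested ABC genes with a promoter there, CACGTG was in 3 (Abca1, Abcc4, Abcf1) and TGACGTCA in 2 (Abce1, Abcg2). The Runx core letters TGTGGT and TGCGGT, searched the same way and contained in neither of the other motifs, were in 2 (Abca7, Abcg2) and 3 (Abcb10, Abcc5, Abcg2) of the 21, against 15.9% and 5.84% of all genes. None of the 3 windows printed held either Runx pattern. The motifs were chosen with the sequences in view.

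Abcc1 was the membrane transporter that passed the test. It encodes MRP1, which exports glutathione conjugates and leukotriene C4 and contributes to drug resistance. Abcc1 (ENSMUSG00000023088, chromosome 16, 14361558 to 14475737, plus strand) was at 38.5, 25.1 and 25.03 TPM in uninduced and 15.04, 11.7 and 12.7 TPM in induced libraries. The groups did not overlap, and uninduced replicate 1 stood above the other pair. The group means were 29.5 ± 7.75 and 13.2 ± 1.70 TPM (SD, n = 3 each), and Abcc1 fell by 1.09 on the log2 scale (SE 0.25, limma adjusted p = 0.0233). Abcc1 did not pass on the median-of-ratios scale (-0.70, limma adjusted p = 0.121). It passed without uninduced replicate 3 but not without any other single library (limma adjusted p up to 0.0911).

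The other tested subfamily C members were lower in the mean without passing. Abcc4, which exports cyclic nucleotides and prostaglandins, was at 13.1, 15.6 and 11.04 TPM in uninduced and 7.34, 5.70 and 6.68 TPM in induced libraries. The groups were separate, and the log2 change of -0.91 (SE 0.27) had a limma adjusted p of 0.0586. Abcc5, also a cyclic nucleotide exporter, was at 12.2 ± 3.24 and 7.14 ± 2.12 TPM (SD, n = 3 each), and its groups overlapped (limma adjusted p = 0.184). Abcc10 was at 2.64, 5.16 and 0.634 TPM in uninduced and 1.09, 1.38 and 1.64 TPM in induced libraries, so its uninduced values spanned the induced ones. Of the genes of glutathione synthesis and conjugation, which make substrates of Abcc1, 7 of 9 were tested, and 0 passed with limma in either direction on either scale (1 had an unadjusted p under 0.05 on the deposited scale and 2 after median-of-ratios scaling).

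Among lipid transporters, Abca2, an endolysosomal lipid transporter, was the highest member of subfamily A. It was at 30.5, 40.03 and 26.9 TPM in uninduced and 20.6, 15.5 and 18.8 TPM in induced libraries. Every induced value lay below every uninduced one, and the log2 change was -0.78 (SE 0.23, limma adjusted p = 0.0570). Of 3 tested genes of cholesterol and phospholipid export, 0 passed with limma (1, Abcg1, had an unadjusted p under 0.05). Abcg1, which loads cholesterol onto lipoprotein particles, was at 20.5 ± 3.21 and 12.6 ± 3.25 TPM (SD, n = 3 each), without overlap (log2 change -0.68, limma adjusted p = 0.133). Abca1, which lipidates apolipoprotein A-I, was at 4.05 ± 0.605 and 3.73 ± 0.388 TPM (SD, n = 3 each), and its groups overlapped (log2 change -0.09, limma adjusted p = 0.885). Abca7, a related phospholipid transporter, was at 15.5 ± 2.55 and 12.5 ± 0.761 TPM (SD, n = 3 each, limma adjusted p = 0.476), and its sign turned to 0.10 after median-of-ratios scaling.

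Abca3, which serves lamellar bodies in the lung, was at 9.01, 12.9 and 5.14 TPM in uninduced and 11.02, 11.9 and 10.4 TPM in induced libraries. The induced values lay inside the uninduced range (limma adjusted p = 0.535). Abca5 was at 0.742 to 2.74 TPM over the 6 libraries. Abca4, a retinal transporter, was at 1.15 to 2.07 TPM in uninduced and 0 to 1.03 TPM in induced libraries (limma adjusted p = 0.216). Of 11 genes of sterol sensing and lipoproteins, 7 were tested. Apoe, an apolipoprotein that accepts exported cholesterol, was the 1 that passed, as lower, where 10.2% of all genes did so, at 196.97 ± 36.6 TPM without and 70.2 ± 16.4 TPM with induction (SD, n = 3 each). Its log2 change was -1.48 (limma adjusted p = 0.00366), and it passed also after median-of-ratios scaling (-1.08, limma adjusted p = 0.0215), where 3.10% of all genes passed as lower. Nr1h2, the sterol-sensing receptor that activates Abca1 and Abcg1, was at 59.1 ± 8.78 and 56.8 ± 14.1 TPM (SD, n = 3 each).

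**Figure D4:**
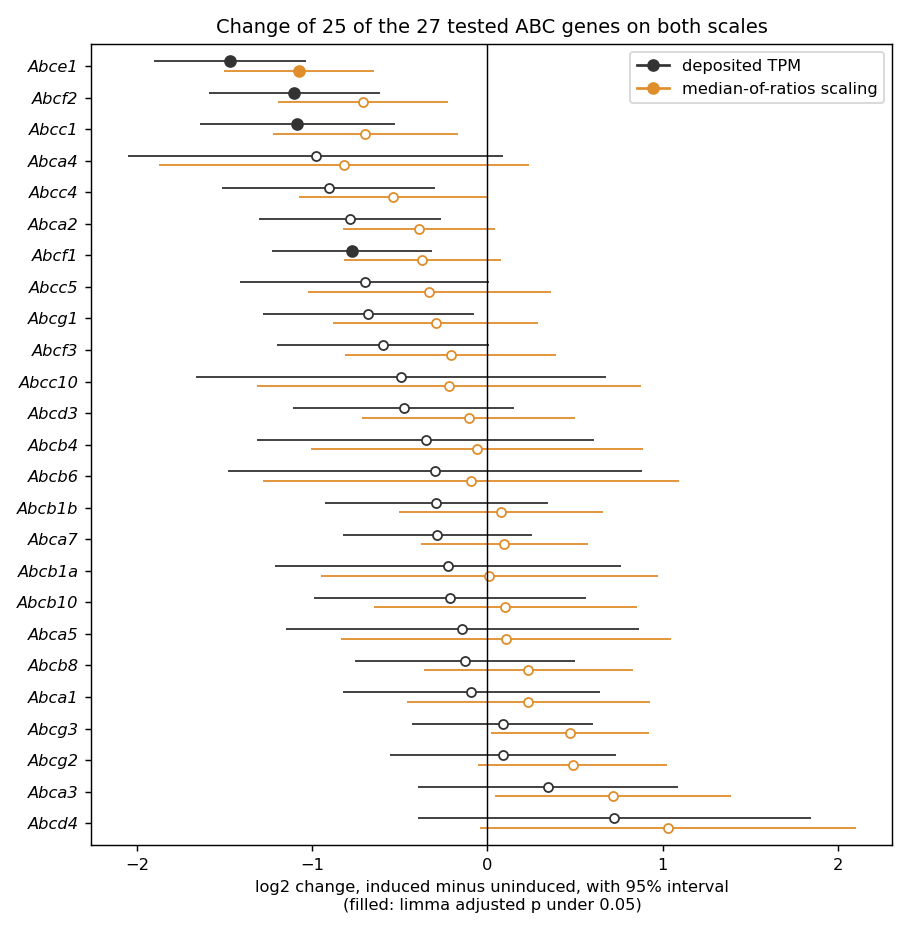
Log2 change of 25 of the 27 tested ABC genes, induced minus uninduced, with 95% intervals from limma, on the deposited scale (black) and after median-of-ratios scaling (orange); filled points had a limma adjusted p under 0.05. Abce1, Abcf2, Abcc1 and Abcf1 are filled on the deposited scale and Abce1 on both, and the orange points lie to the right of the black ones.

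Abcb8, Abcb10 and Abcb6 of subfamily B, which serve mitochondria or carry porphyrins, did not pass. Abcb8 was at 8.65 ± 0.342 and 7.93 ± 1.76 TPM (SD, n = 3 each, limma adjusted p = 0.802). Abcb10, which is needed for haem synthesis in red cell precursors, was at 3.81, 3.67 and 4.73 TPM in uninduced and 4.15, 2.46 and 3.63 TPM in induced libraries, with groups that overlapped (log2 change -0.21, limma adjusted p = 0.728). Abcb6, a porphyrin transporter, was at 0.207 to 2.08 TPM over the 6 libraries (limma adjusted p = 0.753).

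Haem synthesis genes did change beside them. Of 17 tested genes of haem and iron-sulfur metabolism, 2 were higher and 0 lower, where 1.29% of all genes passed as higher. Alas2, the erythroid form of the first enzyme of haem synthesis, rose from 2.17, 0.861 and 2.60 TPM to 11.06, 15.9 and 18.3 TPM (log2 change 2.51, SE 0.37, limma adjusted p = 0.00415). Fech, which inserts iron into the porphyrin ring, rose too, with means of 5.65 ± 1.39 and 12.9 ± 1.99 TPM (SD, n = 3 each), by 1.07 on the log2 scale (limma adjusted p = 0.0414). Both passed after median-of-ratios scaling too, where 2.88% of all genes passed as higher. Summed erythroid markers were higher in the same libraries, as given above, and their part in these results was not tested.

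Abcd3 and Abcd4, of subfamily D, did not pass. Abcd3, the highest of subfamily D and an importer of branched fatty acids and bile acid precursors, was at 15.7, 9.44 and 11.08 TPM in uninduced and 8.94, 7.31 and 8.45 TPM in induced libraries. The groups were separate by a small gap (log2 change -0.48, SE 0.28, limma adjusted p = 0.306). Abcd4, which releases cobalamin from lysosomes, was at 1.80, 5.17 and 1.06 TPM in uninduced and 2.46, 4.73 and 7.09 TPM in induced libraries, which overlapped (log2 change 0.72, SE 0.50, limma adjusted p = 0.385). Of 11 tested peroxisome genes 0 passed with limma on the deposited scale (0 at an unadjusted p under 0.05), and Cat, the catalase gene, passed as higher after median-of-ratios scaling (0.64, limma adjusted p = 0.0492), where 2.88% of all genes did. Of 5 tested cobalamin genes 1 passed, as lower, where 10.2% of all genes did: Mmachc, a cobalamin-processing enzyme, with means of 9.82 ± 3.60 and 3.05 ± 1.04 TPM (SD, n = 3 each). It fell by 1.40 on the log2 scale (limma adjusted p = 0.0416) and did not pass after median-of-ratios scaling (limma adjusted p = 0.142).

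The peptide transporter genes Tap1 and Tap2 and the chloride channel gene Cftr are ABC genes by structure that do not carry an Abc symbol. Tap1 and Tap2 form the pump that carries peptides to MHC class I molecules. Tap1 was at 26.1, 30.3 and 20.1 TPM in uninduced and 29.9, 18.2 and 26.2 TPM in induced libraries, which overlapped (log2 change -0.05, limma adjusted p = 0.923). Tap2 was at 26.3, 19.4 and 23.4 TPM in uninduced and 35.7, 45.6 and 34.6 TPM in induced libraries, with every induced value above every uninduced one. Its log2 change was 0.72 (SE 0.22, limma adjusted p = 0.0582), and it passed after median-of-ratios scaling (1.11, limma adjusted p = 0.0250). The difference between the changes of Tap1 and Tap2 was not tested. Cftr did not exceed 0.837 TPM in a library. Of 6 tested peptide-loading genes 3 passed as lower and 0 as higher on the deposited scale, where 10.2% of all genes passed as lower, the chaperones and oxidoreductase Canx, Pdia3 and Calr (log2 change -0.91, -0.73 and -0.62). After median-of-ratios scaling 1 of the 6 passed as lower, Canx (-0.51, limma adjusted p = 0.0451), and 1 as higher, B2m, the light chain of MHC class I (0.45, limma adjusted p = 0.0157), where 3.10% of all genes passed as lower and 2.88% as higher.

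Genes that work with Abce1 on ribosomes were tested as a last group. Of 10 genes of ribosome recycling and quality control, 4 were lower and 0 higher, where 10.2% of all genes passed as lower. Pelo encodes Pelota, the partner that loads Abce1 onto stalled ribosomes. It fell from 21.0, 17.5 and 8.69 TPM to 5.94, 3.70 and 5.33 TPM (log2 change -1.42, SE 0.36, limma adjusted p = 0.0336). Zfp598, a sensor of collided ribosomes, had means of 21.1 ± 2.36 and 9.74 ± 2.75 TPM (SD, n = 3 each) and fell by 1.07 (limma adjusted p = 0.0319). Eif2s1, the alpha subunit of eIF2, had means of 24.7 ± 1.88 and 12.3 ± 1.58 TPM (SD, n = 3 each) and fell by 0.95 (limma adjusted p = 0.0257). The fourth gene, Gspt1, a termination factor, passed narrowly (log2 change -0.71, limma adjusted p = 0.0498). Hbs1l, the GTPase that acts with Pelota, was at 11.07, 16.4 and 8.57 TPM in uninduced and 8.43, 14.6 and 10.5 TPM in induced libraries, which overlapped (limma adjusted p = 0.890). After median-of-ratios scaling 0 of the 10 passed with limma (3 had an unadjusted p under 0.05). The summed proliferation markers were 170.2 to 191.7 TPM in uninduced and 19.4 to 28.6 TPM in induced libraries, and their part in these results was not tested. Transcription factors known to act on drug efflux genes, such as Nfe2l2 and Ahr, numbered 8 tested of 10, of which 0 passed with limma on either scale (0 at an unadjusted p under 0.05 on both).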

How the data were processed

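The authors deposited 1 table of TPM with a column per library. The submitters' processing notes name bcl2fastq, HISAT2, StringTie and DESeq2 and the build GRCm38. Program versions, annotation release, read filters and strand handling are not given in the sources used here. Libraries were stranded total RNA, sequenced as paired 100-base reads, per the labels' protocols. TPM columns total 999976 to 999993. The table has 60496 rows, and rows were summed per gene ID (5025 repeats, none among the ABC genes).

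Tests used limma 3.58.1 in R 4.3.3 on log2(TPM + 1), with a variance trend, two-sided, over the 13470 genes that averaged 1 TPM or more, with Benjamini-Hochberg adjustment and a threshold of 0.05. Fold changes on this scale understate changes of low genes. In data simulated for this comparison with 13470 genes, 92% of genes changed by 2 log2 units and 34% of those changed by 1 were recovered, and 9 of 135 calls were false. The changed genes, 100 of each size, all lay above 5 TPM, with as many rises as falls and no shift of all genes. The recovery therefore does not cover lower genes such as Abcb1a. Alternatives were pseudocounts of 0.1 and 5, 2 other filters, 3 scalings, no trend, leaving out each library, and a replicate block.

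The members and lists were chosen with earlier results of these data known. Named in full are the 3 pumps, members passing on either main scale and the highest member of each subfamily; of other lists, at most 3 passing genes with the largest change, and Tap1, Tap2 and Cftr. Gspt1, Hbs1l, Nr1h2 and genes given by name only were added after their values were seen. Coding sequences were aligned with mafft 7.526. Promoters, from RefSeq (GRCm38.p6), matched 38 of 50 members and 21 of 27 tested; Abcc1 was not among them. Exons of 6 tested members overlap another gene in GENCODE M21 (Abca3, Abcb10, Abcb1a, Abcb1b and Abcc10 on the opposite strand, Abcb6 on the same strand), and their values are uncertain to that extent. The overlapping gene averaged 5.36 TPM for Abca3, 0.819 TPM for Abcb10 and at most 0.271 TPM for the rest. Counts and medians cover all 27 tested members, of which 25 are reported singly, and some single genes are not reported here.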

Additional observations from a re-analysis of the deposited data

How the results depend on the processing

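Abce1 passed under each of the alternatives listed in the methods (adjusted p from 0.0019 to 0.0193). On the median-of-ratios scale, with a library also left out (chosen after seeing the data), its change was -1.19 to -0.99 with adjusted p from 0.0355 to 0.0630, missing the threshold without uninduced replicate 3 or induced replicates 1 or 3. The ABC genes passing, 4 as reported, were 2 with all genes above 0 or with no trend, 1 with each scaling (median-of-ratios, quantile, and to nuclear protein-coding genes), and 6 at a mean of at least 5 TPM, where Abca2 (adjusted p 0.0428) and Abcc4 (0.0476) were added. They were 1 to 3 when a library was left out, and 0 to 1 when that was combined with median-of-ratios scaling, where limma gave 3 to 6 at an unadjusted p under 0.05. On the deposited scale Abcf2 missed the threshold when induced replicate 1 was left out (adjusted p 0.0529), and Abcf1 with each library left out (0.0562 to 0.125).

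All genes passing, 1549 (174 higher, 1375 lower), were 752 (96, 656) without the filter, 806 (388, 418) by median of ratios, 814 (374, 440) by quantiles, 944 (465, 479) after protein-coding rescaling, 767 (108, 659) without the trend, and 573 to 1198 with a library left out. Partner genes passing, 11 (2 higher, 9 lower) as reported, were 4 (1, 3) without the filter, 7 (5, 2) by median of ratios, 6 (4, 2) by quantiles, 8 (6, 2) after protein-coding rescaling, 2 (1, 1) without the trend and 3 to 6 with a library left out. The family median of -0.36 was -0.64 at a mean of at least 5 TPM (all genes -0.38), -0.094 by median of ratios, -0.10 by quantiles, -0.081 after protein-coding rescaling and -0.48 to -0.40 with a library left out. It was -0.52 with a pseudocount of 0.1 (all genes -0.39) and -0.25 with a pseudocount of 5 (all genes -0.23).

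With the replicate block 902 genes (120, 782) and 3 ABC genes passed, Abcf1 being lost (adjusted p 0.0830), and 3 partner genes (1, 2). Deviations of same-numbered libraries from their group means correlated at 0.0215, -0.0152 and 0.0172, and 3 of 6 libraries correlated best with their own number. With so few libraries these values cannot decide whether a number marks a shared animal, litter or day, and the labels do not state it.

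Signs turned with the 3 scalings, in the order above, for Abca1 (0.23, 0.23, 0.26), Abca5 (0.11, 0.12, 0.13), Abca7 (0.096, 0.081, 0.12), Abcb10 (0.10, 0.11, 0.12), Abcb1a (0.011, 0.014, 0.028), Abcb1b (0.076, 0.065, 0.10) and Abcb8 (0.23, 0.22, 0.26); none of these passed, and the scalings differ by construction in the centre of all genes. With a library left out Abcg2 ranged from -0.19 to 0.34, Abca5 from -0.42 to 0.13 and Abcg3 from -0.027 to 0.19. For the other differences the cause was not tested. Depth is unknown in TPM, so values near 1 TPM have no counting error attached.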
